A study of Mus musculus with 58 samples.

Results

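The 8 genes described here encode subunits of glutamate receptors in mouse somatosensory cortex: the AMPA receptor subunits Gria1, Gria2, Gria3 and Gria4, the NMDA receptor subunits Grin1, Grin2a and Grin2b, and the metabotropic receptor Grm5. They were chosen by gene symbol, all 8 were found among the 9636 genes of the deposited count table, and none was lost to a filter on low counts. The table holds 58 libraries of polyadenylated RNA from C57BL/6J mice of both sexes. At an age of 2 to 4 months the mice had received a closed head injury or a sham procedure on each of 5 days, and 30 min after each one an intraperitoneal injection of SB239063 (SB, 20 mg/kg in saline), which blocks the p38 MAPK stress kinase, or of saline alone as vehicle. Tissue belonged to the chronic time, given as about 18 and 34 days after the last injury, and which mouse belongs to which day was not given in the sources used here. The groups were sham vehicle (14 libraries: 9 female, 5 male), sham SB (5: 3 female, 2 male), injured vehicle (20: 12 female, 8 male) and injured SB (19: 11 female, 8 male). All groups thus shared the repeated handling and injections, and mice came from 4 labelled cohorts in each sex, F1 to F4 and M1 to M4.

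Glutamate is the main excitatory transmitter of the cortex. AMPA receptors are tetramers that carry most of the fast excitatory current, and their subunit make-up sets conductance, calcium entry and trafficking. NMDA receptors need the obligatory subunit encoded by Grin1 together with subunits such as those encoded by Grin2a and Grin2b, and they admit calcium when glutamate binding and depolarization coincide. The receptor with the Grin2b product dominates early in development and that with the Grin2a product gains share as the cortex matures. Grm5 encodes a receptor that signals through a G protein to release calcium from internal stores. Overactivation of NMDA receptors is a classical route of neuronal damage after brain injury.

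The subunit encoded by Gria2 is the one that makes AMPA receptors nearly impermeable to calcium, through RNA editing of a glutamine codon at a site in the pore-lining loop (the Q/R site). The coding DNA around that codon is shown for the AMPA subunit genes, of which Gria1 and Gria2 enter a count ratio tested further on. Each stretch holds 63 bases, read 5′ to 3′ from GENCODE vM21 mouse transcripts (GRCm38), with the codon of the Q/R site in capitals.
Gria1: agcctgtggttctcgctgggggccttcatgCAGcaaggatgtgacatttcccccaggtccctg
Gria2: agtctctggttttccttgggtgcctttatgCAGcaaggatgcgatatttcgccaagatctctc
Gria3: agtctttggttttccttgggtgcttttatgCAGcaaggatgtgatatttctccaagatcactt
Gria4: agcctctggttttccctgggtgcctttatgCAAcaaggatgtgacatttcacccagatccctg
All 4 genes carry a glutamine codon there in the genome, CAG in Gria1, Gria2 and Gria3 and CAA in Gria4. Of the 63 bases of Gria2, 57 match in Gria3, 54 in Gria4 and 49 in Gria1. Read counts per gene do not show which transcripts were edited or spliced in which form.

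The libraries summed to between 28316280 and 49158277 counts and the 8 genes were each counted between 2918 and 46890 times per library, so that counting error was small beside the spread between libraries (biological coefficient of variation 0.123). Levels are given as CPM, counts relative to the library total after TMM scaling. Markers of cortical neurons were measured in full (6 of 6 excitatory, 8 of 8 inhibitory, 5 of 5 upper layer and 6 of 6 deep layer genes). Of 6 striatal markers 3 were measured, and their sum ran from 105 to 391 CPM in all libraries but replicate 1 of the injured SB males, at 705 CPM. In bulk tissue, fewer cells of a type and less RNA per cell cannot be told apart. In all, 4 of the 58 libraries lay more than 3.5 median absolute deviations out on 1 of the first 4 principal components: replicates 1 and 7 of the sham vehicle females, replicate 2 of the sham vehicle males and replicate 8 of the injured SB females. Of the 4, 3 are sham vehicle libraries. Counts of positive differences among the 8 genes, and ratios, are therefore also given without the 4 where this group is used. Single genes are given so only where their sign changed, and the counts of the gene lists are not.

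Gria2 was the most abundant of the 8 in reads, at 922.5 ± 99.5 CPM (SD, n = 58 libraries), followed by Grin1 at 656 ± 72.5 and Grin2b at 619 ± 134 CPM. Gria1 (364 ± 38.3 CPM), Gria3 (342 ± 35.1) and Grin2a (337 ± 60.3) lay within the spread of each other, and Grm5 (203 ± 33.6) and Gria4 (140.5 ± 13.2) were lowest. Transcript length bears on this order, because longer transcripts give more reads. Per kilobase of all annotated exons, Grin1 was highest at 67.6 ± 7.48 CPM per kb, and its neighbours Gria1 (60.3 ± 6.34) and Gria2 (59.3 ± 6.40) were within 1 SD of each other. Gria3 followed at 34.7 ± 3.56 CPM per kb, and Grin2b (24.9 ± 5.41), Gria4 (22.3 ± 2.10), Grm5 (19.8 ± 3.27) and Grin2a (18.8 ± 3.36) formed a low group in which each gene overlapped the next. With the length of the longest annotated transcript instead, Grin1 stayed highest at 153 CPM per kb, but Gria2 (89.0) stood above Gria3 (66.0) and Gria1 (65.7), so the order of the AMPA subunits depends on the length chosen.

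The genes differed in how much they varied. The coefficient of variation over all libraries was 9.42% for Gria4 and 10.2% to 11.1% for Gria1, Gria2, Gria3 and Grin1. It was larger for Grm5 (16.6%), Grin2a (17.9%) and Grin2b (21.7%). The sham vehicle group was the most variable of the 4 conditions for every gene but Gria4. For Grin2b its coefficient of variation was 30.3% against 10.3% in sham SB, 20.5% in injured vehicle and 18.0% in injured SB. For the others it ran from 13.4% (Grin1) to 25.1% (Grin2a). This group holds most of the libraries far out and spans all cohorts, while the 5 sham SB libraries lack F3, F4, M3 and M4.

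**Figure D1:**
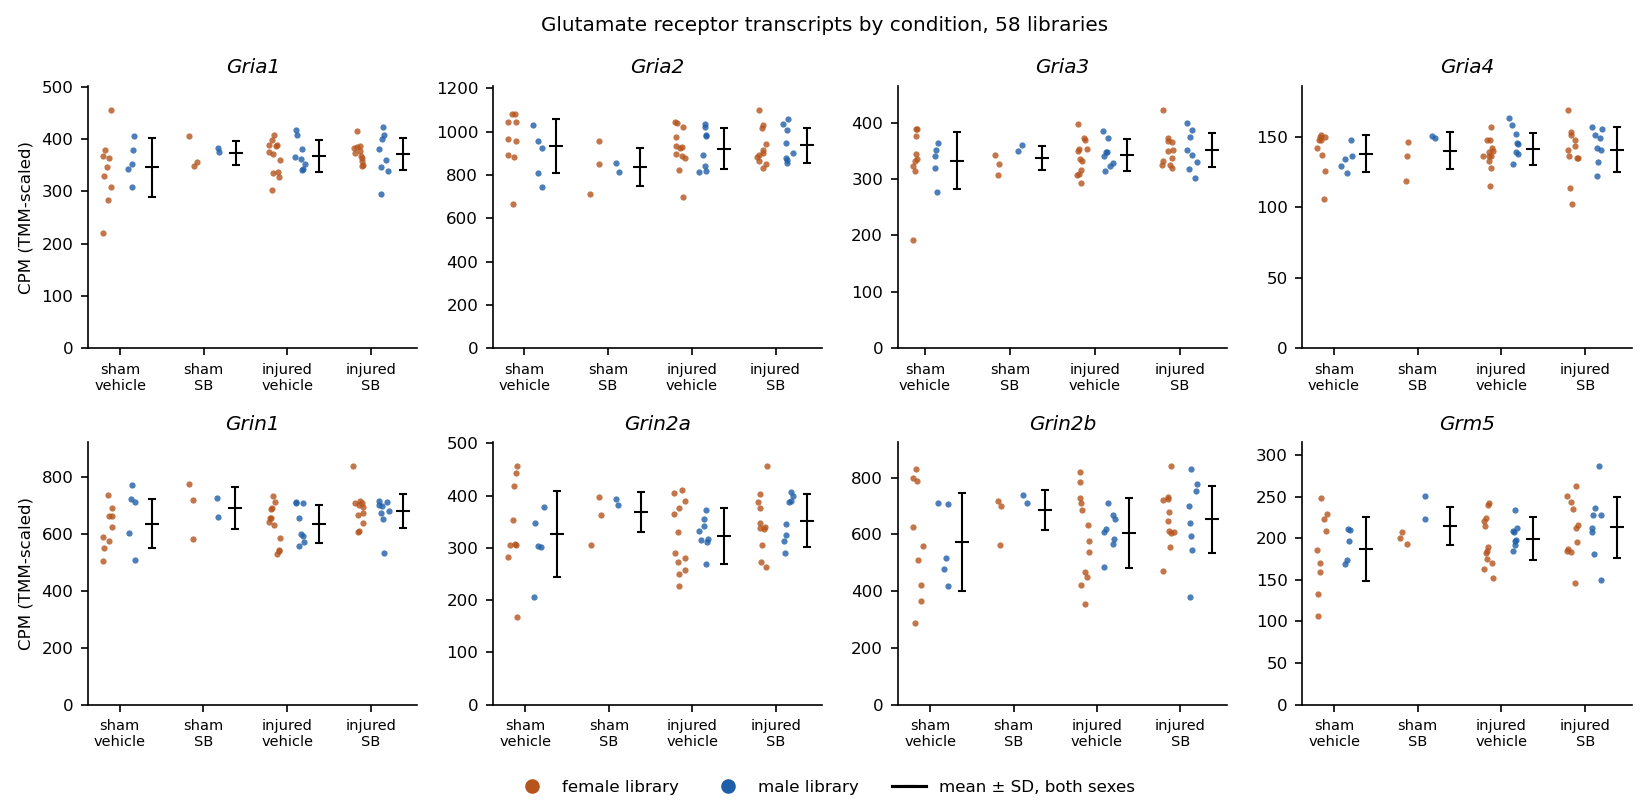
Level of each receptor gene (TMM-scaled CPM, axis from 0) in each of the 58 libraries by condition, with females in orange, males in blue and black bars for the mean ± SD of both sexes. The 4 conditions overlap for every gene, and the sham vehicle libraries of Grin2b spread from 286 to 831 CPM.

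Injury was first compared with sham in the vehicle mice, which asks what differs in the cortex at the chronic time after repeated mild injury. None of the 8 receptor genes passed the test. Among the AMPA subunits, Gria1 ran from 221 to 456 CPM (median 349) in the 14 sham vehicle libraries and from 303 to 417 (median 369) in the 20 injured vehicle libraries. The injured libraries all lie inside the sham range. The log2 difference was 0.091 ± 0.052 (SE), the smallest p of the 8 (edgeR quasi-likelihood test, unadjusted p = 0.0838, adjusted p = 1). Gria2, the calcium-limiting subunit, had close medians: 666 to 1083 CPM (median 955) in sham and 698 to 1044 (median 927) in injured libraries, with a log2 difference of 0.0067 ± 0.056. Gria3 differed by 0.057 ± 0.058 and Gria4 by 0.058 ± 0.053.

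Of the NMDA subunits, Grin1 had medians of 643 CPM in sham vehicle (504 to 772) and 648 CPM in injured vehicle libraries (529 to 733), a log2 difference of -0.0075 ± 0.045 with a 95% interval from -0.098 to 0.083. Grin2b was the least certain: sham vehicle libraries ran from 286 to 831 CPM (median 538) and injured ones from 355 to 821 (median 614). Its log2 difference of 0.092 ± 0.091 had an interval from -0.091 to 0.28. Grin2a differed by 0.024 ± 0.077. Grm5 had medians of 192 CPM (107 to 248) in sham and 198 CPM (152 to 243) in injured libraries and differed by 0.093 ± 0.077. Both groups overlap throughout for these 4 genes.

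In this comparison 0 of the 8 genes passed an adjusted p of 0.05, as did 0% of the 9636 genes tested with edgeR. At an unadjusted p under 0.05 the count was 0 of 8 against 1.75% of all genes, and DESeq2 and limma voom also called 0 of 8. The difference was positive for 7 of the 8 beside 49.4% of all genes, also under both other scalings, with a median of 0.057 beside -6.67e-04 over all genes. That direction is not stable. Without the 4 libraries far out, 3 of 8 were positive, the median was -0.022 and the highest of the 8 was 0.019. By limma voom with quality weights, which weights each library by its own variance, 3 of 8 were positive with a median of -0.019. Over all genes the injury differences went with gene length (Spearman's rho 0.458 across 9549 genes) and with GC content (rho -0.386), descriptions only, since genes are not independent. The 20% of genes with the longest exons had a median of 0.028, and 6 of the 8 receptor genes belong to it, Gria1 and Gria4 being shorter. With the length slope of each library as a covariate, 5 of the 8 were positive with a median of 0.016, and with the GC slope added 5 of 8 with a median of 0.017.

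SB was then compared with vehicle in the injured mice, which asks what the p38 inhibitor changed after injury. Grin1, the obligatory NMDA subunit, had the smallest p. It ran from 529 to 733 CPM (median 648) in the 20 injured vehicle libraries and from 534 to 839 (median 696) in the 19 injured SB libraries. The groups overlap widely, and the SB median lies above the vehicle median. The log2 difference was 0.091 ± 0.040, with a 95% interval from 0.0095 to 0.17 (unadjusted p = 0.0294). It did not pass after adjustment over all genes (edgeR adjusted p = 0.689, and 0.237 to 0.922 over the 69 alternative settings). Over those settings the difference ran from 0.032, with the length and GC slopes of each library as covariates, to 0.11. The sign was positive in 7 of 8 cohorts, M2 being the exception. The largest cohort difference, 0.34, was in F4, whose 1 injured SB library is among the 4 far out. The female and male differences were 0.11 ± 0.052 (0.020 with both covariates) and 0.074 ± 0.062 (0.044 with both).

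Grin2a had medians of 324 CPM (228 to 410) with vehicle and 345 CPM (263 to 456) with SB, and a log2 difference of 0.11 ± 0.069 that was also positive in 7 of 8 cohorts (unadjusted p = 0.117, edgeR adjusted p = 0.751). Grin2b differed by 0.088 ± 0.082, from a median of 614 CPM to 647 CPM, and was positive in 5 of 8 cohorts. Grm5 differed by 0.077 ± 0.069, from 198 to 213 CPM, likewise in 5 of 8 cohorts. The AMPA subunits lay closer to 0: Gria1 at 0.0055 ± 0.046, Gria2 at 0.027 ± 0.051, Gria3 at 0.032 ± 0.052 and Gria4 at -0.0088 ± 0.048. Each of these intervals includes 0 and reaches at most 0.14 on the log2 scale.

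No receptor gene was called in this comparison by edgeR (0 of 8 beside 0% of all genes), DESeq2 or limma voom, which called 1 other gene. At an unadjusted p under 0.05 it was 1 of 8 (Grin1) against 7.06% of all genes. The difference was positive for 7 of 8 genes (6 of 8 with total count scaling, where Gria1 turned negative) beside 52.2% of all genes, with a median of 0.055 beside 0.0034. Over all genes SB differences rose with gene length (rho 0.337), and the longest 20% had a median of 0.032. With the length slope of each library as a covariate, 4 of 8 genes were positive and their median was 0.0043. With the GC slope added, 7 of 8 were positive and the median was 0.029. Without the 4 libraries far out, 6 of 8 were positive and the median was 0.052. Values of some cell type markers differed as well, with none called by edgeR. All 10 oligodendrocyte markers had lower values with SB (median -0.36, all 10 at an unadjusted p under 0.05), and their summed level ran from 2514 to 8811 CPM in injured SB and from 5255 to 12535 in injured vehicle libraries. The 6 excitatory neuron markers summed to 5441 to 7957 CPM and 5514 to 7682 CPM. All 5 upper layer markers had higher values with SB (median 0.15) and summed to 622 to 1114 CPM against 628 to 891 CPM, and 4 of 6 deep layer markers had lower ones (median -0.094). All 5 endothelial (median 0.10) and all 3 striatal markers (median 0.30) had higher values. Across 58 libraries, after groups and cohorts were removed, the upper layer sum had r = 0.454 with Grin2a and 0.0027 with Grin1, and the oligodendrocyte sum -0.485 and -0.135. The part of these cells in the receptor differences was not tested.

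Injured SB mice were also compared with sham vehicle mice. This contrast shares a group with each of the contrasts above and is their sum. Grm5 had medians of 192 CPM (107 to 248) in sham vehicle and 213 CPM (146 to 287) in injured SB libraries, a log2 difference of 0.17 ± 0.078 (unadjusted p = 0.0337, edgeR adjusted p = 0.367). Grin2b, with medians of 538 and 647 CPM, differed by 0.18 ± 0.092 (unadjusted p = 0.0561, edgeR adjusted p = 0.412). Grin2a differed by 0.13 ± 0.078, Gria1 by 0.097 ± 0.052, Gria3 by 0.088 ± 0.059, Grin1 by 0.083 ± 0.046, Gria4 by 0.049 ± 0.054 and Gria2 by 0.034 ± 0.057. The libraries of both groups overlap for all 8 genes.

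Here too 0 of 8 genes and 0% of all genes were called by edgeR, and DESeq2 and limma voom called 0 of 8. At an unadjusted p under 0.05 it was 1 of 8 against 12.6%. All 8 differences were positive, under each of the 3 scalings, beside 50.2% of all genes, with a median of 0.093 beside 3.57e-04 over all genes and 0.060 in the longest 20% of genes. Over all genes these differences rose with gene length (rho 0.543). With the length slope of each library as a covariate, 6 of 8 were positive, the median was 0.028 and the highest 0.068. With the GC slope added, 8 of 8 were positive, the median was 0.038 and the highest 0.089. Limma voom gave 8 of 8 and a median of 0.010. Without the 4 libraries far out, 5 of 8 were positive, the median was 0.025 and the highest of the 8 was 0.088. The largest differences within a cohort were in F2, at 0.90 for Grm5 and 1.21 for Grin2b. In the other cohorts it ran from -0.29 to 0.37 for Grm5 and from -0.11 to 0.56 for Grin2b. F2 holds only 1 sham vehicle library, replicate 1 of the females, which is among the libraries far out. That library is the lowest of all for Gria1, Gria2, Gria3, Grin2a, Grin2b and Grm5. M1, M2 and M4 also hold 1 sham vehicle library each.

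**Figure D2:**
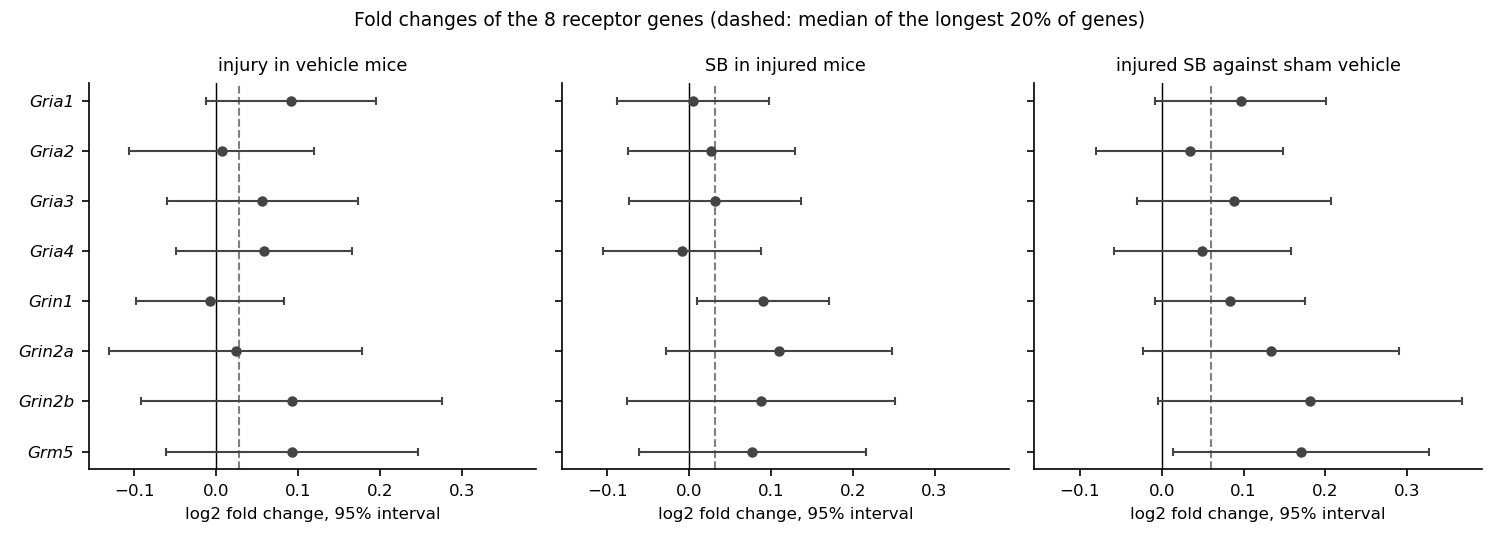
Log2 fold change of each receptor gene with its 95% interval in 3 comparisons, from the edgeR fit over 58 libraries. Points lie between -0.0088 and 0.18, only the unadjusted intervals of Grin1 with SB and of Grm5 in the right panel leave out 0, and dashed lines mark the median of the longest 20% of genes (0.028, 0.032 and 0.060).

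In sham mice, SB was compared with vehicle over only 5 sham SB libraries, from cohorts F1, F2, M1 and M2. The 8 log2 differences ran from -0.077 to 0.16 with 7 positive (47.1% of all genes) and a median of 0.093, beside -0.0087 over all genes. Without the 4 libraries far out, 5 of 8 were positive and the median was 0.013, and limma voom gave 5 of 8 and 0.0075. None was called by edgeR (0 of 8, 0% of all genes, and 0 of 8 against 7.02% unadjusted), and DESeq2 and voom called 0. The interaction of injury and SB ran from -0.086 to 0.10 with 0 of 8 called (0% of all genes, and 0 of 8 against 1.38% unadjusted), so no receptor gene was shown to respond differently to SB after injury than after sham. It was positive for 1 of 8 (52.2% of all genes, median -0.056), but for 5 of 8 without the 4 libraries (median 0.039) and for 6 of 8 with voom (0.052), so its direction is not stable.

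Within each sex no receptor gene was called either. Injury differences ran from -0.075 to 0.11 in females, with 5 of 8 positive (45% of all genes) and 0 of 8 at an unadjusted p under 0.05 (3.14% of all genes). Without the 4 libraries 0 of 8 were positive in females (median -0.069), and voom gave 2 of 8. In males they ran from -0.042 to 0.16, with 7 of 8 positive (50.2%) and 0 of 8 unadjusted (3.55%), and without the 4 libraries 5 of 8 were positive (median 0.047). Voom gave 4 of 8 in males, and the length slope covariate 2 of 8. SB differences after injury ran from 0.011 to 0.11 in females, with 8 of 8 positive (52.7%) and 1 of 8 unadjusted (7.21%), which was Grin1, but with the length slope covariate 2 of 8 were positive (median -0.026). In males they ran from -0.028 to 0.12, with 6 of 8 positive (51.9%) and 0 of 8 unadjusted (1.88%). By edgeR, 0 of all 9636 genes were called in these 4 contrasts, and DESeq2 and voom called 0 of the 8. The difference between the sexes itself (male minus female) ran from -0.069 to 0.20 for injury, with 5 of 8 positive (51.8%; 7 of 8 without the 4 libraries, 3 of 8 with the length slope covariate) and 0 of 8 unadjusted (6.13%). For SB it ran from -0.048 to 0.023, with 2 of 8 positive (48.4%; 7 of 8 with voom) and 0 of 8 unadjusted (0.913%), and 0 of 8 were called in both. Male and female effects were therefore not shown to differ for any receptor gene. Apart from Grin1 with SB, these sex-specific, sham SB and interaction values are given as ranges, a choice made after the results were known.

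Subunit ratios within a library do not depend on how libraries are scaled. The 2 genes of a ratio can still move with library slopes on length and GC to different degrees. After groups and cohorts were removed, r with the GC slope was -0.849 for Gria2 and -0.494 for Gria1. With the length slope it was 0.821 for Grin2b and 0.687 for Grin2a. The ratio tests held no such covariate. Counts were not divided by transcript length, so the level of a ratio does not give the proportion of transcripts. Per kb, Grin2a and Grin2b averaged 18.8 and 24.9 CPM by all exons, and 23.1 and 25.7 by the longest annotated transcript. The log2 ratio of Grin2a to Grin2b counts, the subunits of the maturation switch, had a median of -0.82 (-1.03 to -0.25) in sham vehicle libraries. It was -0.90 (-1.08 to -0.59) in injured vehicle and -0.87 (-1.20 to -0.39) in injured SB libraries. The groups overlap almost entirely. Within cohorts the injured vehicle mean was lower than sham by 0.082 on the log2 scale, a difference of -0.082 (permutation within cohorts, two-sided p = 0.12, adjusted p = 0.241 over 4 tests), and -0.022 without the 4 libraries far out. With SB the difference was 0.017 (permutation p = 0.704, adjusted p = 0.704).

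The log2 ratio of Gria1 to Gria2 counts does not show editing at the Q/R site marked at the start. It had a median of -1.57 (-1.88 to -1.07) in sham vehicle, -1.30 (-1.69 to -0.95) in injured vehicle and -1.33 (-1.68 to -1.02) in injured SB libraries. Injury differed by 0.099 within cohorts (permutation p = 0.119, adjusted p = 0.241), higher in 4 of 8 cohorts, and by 0.072 without the 4 libraries. SB differed by -0.019 (permutation p = 0.668, adjusted p = 0.704). Neither ratio passed for injury in vehicle mice or for SB in injured mice. In the 5 sham SB libraries, which were not tested for ratios, the median was -1.19 (-1.46 to -0.81) for Gria1 to Gria2 and -0.89 (-0.98 to -0.82) for Grin2a to Grin2b. These libraries come only from cohorts F1, F2, M1 and M2, while the other conditions also hold F3, F4, M3 and M4. Treatment and cohort therefore cannot be told apart in these medians. Between cohorts the Gria1 to Gria2 ratio ranged more, from a mean of -1.15 ± 0.14 (SD, n = 10) in F1 to -1.59 ± 0.15 (n = 5) in F4.

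**Figure D3:**
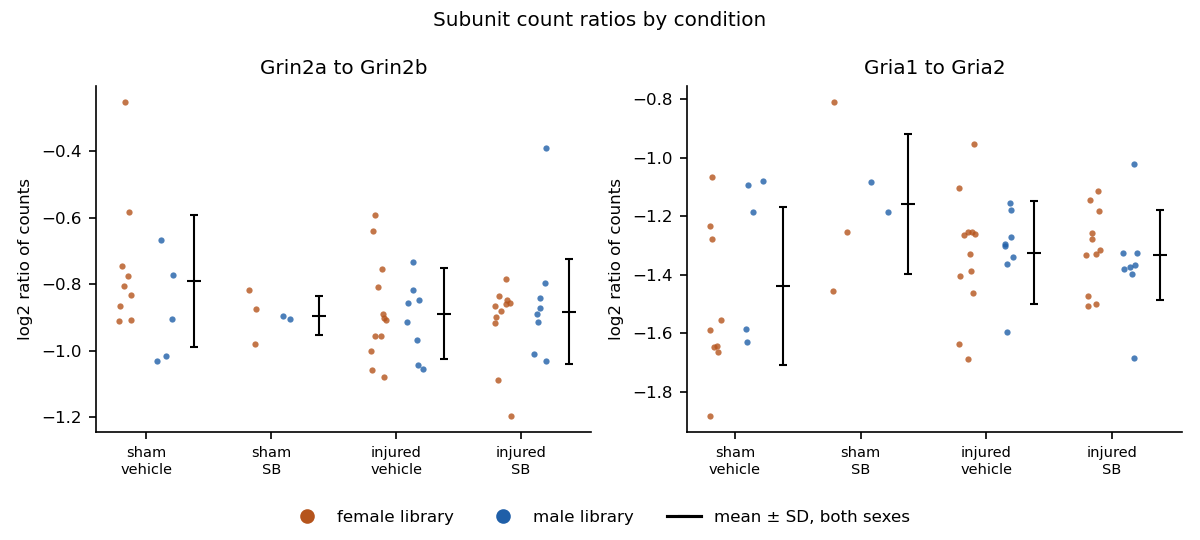
Log2 ratio of counts of Grin2a to Grin2b (left) and of Gria1 to Gria2 (right) in each library by condition, females in orange, males in blue, with the mean ± SD of both sexes in black. The conditions overlap, and sham vehicle libraries run from -1.03 to -0.25 and from -1.88 to -1.07.

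Levels also differed between the labelled cohorts. With the 8 groups held fixed, 5 of 8 receptor genes differed between the female cohorts (edgeR F test over 3 coefficients), where 50% of all genes did, so this count is near the background. They were all 3 NMDA subunits, Grm5 and Gria1: Grin2b (adjusted p = 9.17e-05), Grin1 (1.27e-04), Grin2a (2.24e-04), Gria1 (0.0141) and Grm5 (0.0212). Gria2, Gria3 and Gria4 did not pass. Under total count scaling the count was 3 of 8, with 52.5% of all genes called. By limma voom with quality weights it was 7 of 8, with 72% of all genes called.

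Grin2b showed the widest range. Its level was 760 ± 59.5 CPM (SD, n = 10) in F1, 603 ± 110 (n = 14) in F3, 552 ± 162 (n = 6) in F2 and 437 ± 58.9 (n = 5) in F4. No library of F4, the highest at 511 CPM, reached the lowest of F1 at 680 CPM. Held to the same groups, the highest and lowest cohorts differed 1.73-fold for Grin2b, 1.47-fold for Grin2a and 1.06-fold for Gria4. These folds are descriptions. A direct contrast of F1 with F4 was run and set aside because the cohorts were picked as extremes, so no test result is given. Grin2a followed the same order at its ends, with 402 ± 31.2 CPM in F1 and 274 ± 28.4 in F4.

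In the male cohorts 0 of 8 genes passed the edgeR F test, with 3.83% of all genes called. At an unadjusted p under 0.05 it was 3 of 8 (Grin2b, Grin1 and Grm5) against 19.9%. This count changed with the tool: limma voom with quality weights called 6 of 8, with 31.6% of all genes called, and DESeq2 0 of 8 with 6.36%. Grin2b ran from 500 ± 85.0 CPM (n = 5) in M4 to 706 ± 87.5 (n = 6) in M2. These are its lowest and highest male cohorts, 1.38-fold apart with groups held fixed. A direct contrast of M2 with M4 was run and set aside because they are extremes, so no test result is given.

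**Figure D4:**
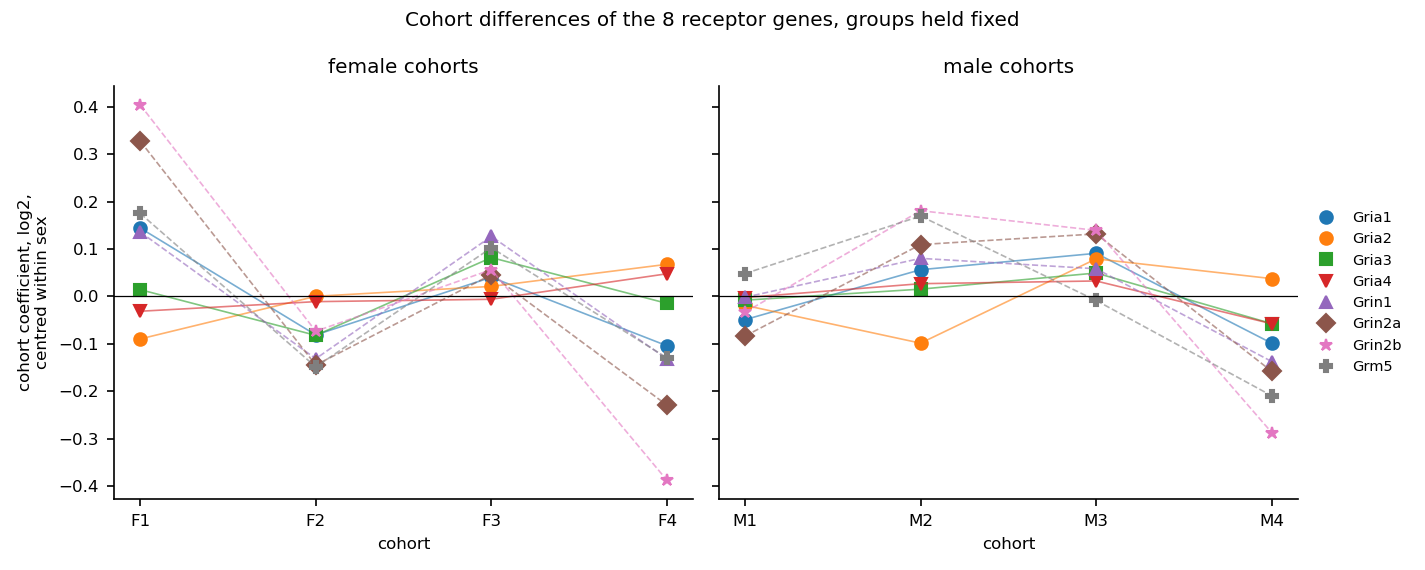
Cohort coefficients of the 8 receptor genes on the log2 scale with the groups held fixed, centred on 0 within females (left) and males (right). Thin lines only join the points of a gene, since cohorts have no order, and Grin2b spans the widest range, from 0.40 in F1 to -0.39 in F4.

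Of the variance of each gene over libraries, cohort and sex held 47.5% for Grin2b, 46.9% for Grin1 and 41.4% for Grin2a, but 8.39% for Gria4. Condition beyond cohort held 5.22% (Gria2) to 9.45% (Grin1). No chance level was computed for these shares.

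The 8 genes also moved together beyond groups and cohorts, with Grin1 apart. After both were removed, the 21 pairs without Grin1 correlated with Pearson's r from 0.43 (Gria1 with Gria2) to 0.849 (Gria2 with Gria3) over 58 libraries, with a median of 0.724. The 7 pairs with Grin1 ran from -0.405 to 0.276 with a median of -0.101. These values are descriptions, and the points share library preparation, depth and base composition. No such correlations of other genes are given beside them, so the covariation is not shown to be particular to these receptors.

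Library-wide slopes on transcript length and GC content moved with these genes. Across libraries Grin2b, with exons of 24842 bases longer than those of 99.7% of genes, had r = 0.801 with the slope on length. Gria2, whose 36.8% GC lies near the bottom of all genes, had r = -0.766 with the slope on GC, and Gria4 had r = -0.817. Grin1, the GC-rich member at 59.4%, had r = 0.445, the opposite sign. The length slope ran from -0.19 to 0.073 in sham vehicle, from -0.18 to 0.067 in injured vehicle and from -0.086 to 0.071 in injured SB libraries.

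**Figure D5:**
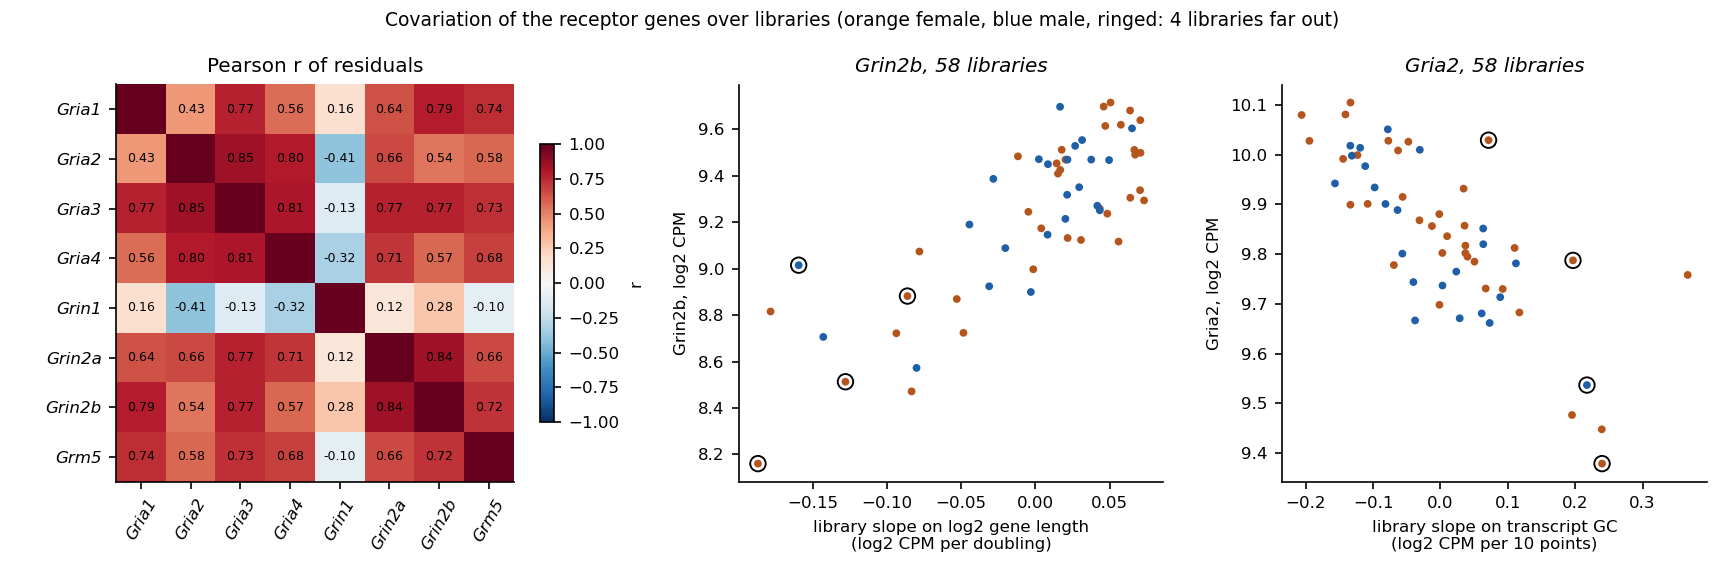
Left, Pearson's r between residuals of each pair of receptor genes after groups and cohorts were removed (58 libraries), where the row of Grin1 runs from -0.41 to 0.28 and all other pairs are at or above 0.43. Middle and right, log2 CPM of Grin2b against the library slope on gene length and of Gria2 against the slope on GC content, with the 4 libraries far out ringed.

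For each receptor gene, the 2 other genes with the most similar residuals over 58 libraries (highest Pearson's r, other members left out) were taken. For the AMPA subunits they were Robo2 (r = 0.889) and Ptprt (0.883) for Gria1, Atrx (0.926) and Ppp1r12a (0.907) for Gria2, Atrx (0.871) and Rabgap1l (0.867) for Gria3, and Slitrk2 (0.864) and Cacna2d1 (0.863) for Gria4. For the NMDA subunits they were Brsk2 (0.899) and Slc12a5 (0.88), the potassium-chloride cotransporter of neurons, for Grin1, Kcnq3 (0.915) and Dgkh (0.902) for Grin2a, and Tmem178b (0.925) and Arhgap32 (0.916) for Grin2b. For Grm5, Mef2a (0.915) is given. Only Atrx appears for more than 1 member. These r values were selected as the highest over all other genes, and no such maxima of further genes are given. The length and GC slopes of the libraries were not removed, and shared regulation was not tested.

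Genes that work with these receptors were grouped in 5 lists. Of other glutamate receptor genes 16 of 19 were measured, of auxiliary subunits 19 of 22, of clustering and trafficking genes 27 of 28, of editing and splicing factors 7 of 8, and of uptake and supply genes 9 of 11. None passed in injury or SB, 0 called in every list beside 0% of all genes. With injury the positive counts were 10 of 16, 10 of 19, 16 of 27, 6 of 7 and 6 of 9, beside 49.4% of all genes. Their medians were 0.041, 0.013, 0.0096, 0.021 and 0.022 beside -6.67e-04 over all genes. With SB they were 11 of 16, 12 of 19, 23 of 27, 5 of 7 and 5 of 9, beside 52.2% of all genes. The SB medians were 0.025, 0.026, 0.037, 0.065 and 9.69e-04 beside 0.0034. The part of gene length in these counts was not tested.

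Of these lists, the genes with the smallest p in injury were Grid1 (log2 difference 0.087) and Grin3a (0.15) among receptors, Cacng2 (-0.085), which encodes the AMPA auxiliary subunit stargazin, and Shisa9 (0.051) among auxiliary subunits. They were Pick1 (-0.18) and Nptx2 (-0.19), a pentraxin that clusters AMPA receptors, among trafficking genes, and Adarb2 (0.16) and Khdrbs3 (-0.038) among editing and splicing factors. For uptake they were the astrocyte glutamate transporters Slc1a2 (0.062) and Slc1a3 (0.042). All had an edgeR adjusted p of 1, and Cacng2, Khdrbs3, Slc1a2 and Slc1a3 changed sign under limma voom.

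With SB they were Grin2d (0.14) and Grik5 (0.090), Shisa7 (0.12) and Gsg1l (0.18), and the postsynaptic scaffold genes Shank3 (0.22 ± 0.071, unadjusted p = 0.00277, edgeR adjusted p = 0.655) and Shank2 (0.13). The editing enzyme that acts on the Q/R site of Gria2, encoded by Adarb1, differed by 0.079, the splicing factor Nova2 by 0.095, the glutamine synthetase gene Glul by -0.062 and the vesicular transporter gene Slc17a6 by -0.10. None passed, with edgeR adjusted p values of 0.655 to 0.895.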

How the data were processed

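Polyadenylated RNA was sequenced from directional libraries, per the labels' protocols. The deposited table holds raw counts of reads for each gene, made per the submitters' processing notes with STAR and featureCounts on GRCm39 (DESeq2 is also named). Of versions, annotation and strand setting nothing is given in the sources used here, so antisense genes that overlap Grin1 and Grin2b could share reads. The smallest count in the table is 101, so genes of low count are not analysed here. Nothing says whether libraries are separate animals, and p-values measure the spread between libraries.

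The tests used edgeR 4.0.16 under R 4.3.3 (TMM, quasi-likelihood, robust), with 8 groups and cohort within sex (14 coefficients, 44 residual degrees of freedom) and Benjamini-Hochberg adjustment over 9636 genes at 0.05. Pooled contrasts average both sexes. Log2 CPM used a prior count of 2, and intervals are at 95%. DESeq2 1.42.0 and limma 3.58.1 were alternatives, and the edgeR step was tested on simulated data. Ratios were tested with 100000 permutations within cohorts. No libraries of a group agreed within sampling noise (chi-square over degrees of freedom at least 9.83). Lengths and GC content came from GENCODE vM21 (9549 genes matched).

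Members and lists were chosen with earlier results of these data known. Named are all members, the 2 likest genes of each (1 gene is not reported here), and the 2 genes of smallest p per list in injury and in SB. The rule for libraries far out and the GC covariate were added after the data were seen. Direct contrasts of F1 with F3, F1 with F4 and M2 with M4 were also run after that and set aside, since they include cohorts at an extreme of the members' levels.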

Additional observations from a re-analysis of the deposited data

Results flagged for a closer look

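Each member and both ratios were checked in each group of 4 to 10 libraries for a highest or lowest library whose gap to the next exceeded Dixon's 95% limit. Of 40 sets checked 6 passed, where chance flags about 1 in 20. The sets are not independent, since members covary.

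In the sham vehicle females, replicate 1 (cohort F2) was the lowest for Gria2 at 666 CPM, the next being 882, and for Gria3 at 192 CPM, the next being 315. In the same group, replicate 7 (cohort F3) had the highest log2 ratio of Grin2a to Grin2b, -0.25 beside -0.58. Both are among the 4 libraries far out on a principal component, and their slopes on gene length were -0.19 and -0.13. Replicate 1 also had the highest oligodendrocyte marker sum of all libraries, 20752 CPM, and the lowest excitatory neuron marker sum, 4513 CPM. In replicate 7 these sums were 5172 and 6243 CPM. The part of these slopes and marker sums in the flagged values was not tested.

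In the injured SB males, replicate 6 (cohort M4) was lowest for Grin1 at 534 CPM, the next being 652, and had the highest log2 ratio of Grin2a to Grin2b, -0.39 beside -0.80. In the injured vehicle males, replicate 7 had the lowest log2 ratio of Gria1 to Gria2, -1.60 beside -1.36. Neither library is among the 4 far out.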

How the results depend on the processing

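No member was called in any of the 11 comparisons of injury, SB and sex under any alternative or with any library left out, but directions were weak. Over all 13 comparisons and every member, 122 of 1144 values under other settings (cohort F tests, which have no sign, included) changed sign and 25 changed their call, and 126 of 6032 values changed sign and 0 their call with a library left out. The sham SB, interaction and sex-specific comparisons hold 95 and 96 of those sign changes. That only their ranges are given by gene was decided after these counts were known, although the plan covered each gene in every comparison. The values below are for the other comparisons.

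For injury, limma voom gave -0.015 (Gria2), -0.024 (Gria3), -0.085 (Grin2a), -0.065 (Grin2b), 0.0099 (Cacng2), 0.030 (Khdrbs3), -0.031 (Slc1a2) and -0.0040 (Slc1a3). Without the 4 libraries far out the values were -0.061 (Gria2), -0.031 (Gria3), -0.057 (Grin2a), -0.034 (Grin2b), 0.010 (Khdrbs3), -0.040 (Slc1a2) and -0.028 (Slc1a3). The length slope as a covariate gave -0.030 (Gria2), -0.030 (Grin2a), -0.0060 (Slc1a2) and -0.0049 (Slc1a3), and with the GC slope added -0.028, -0.032, -0.0042 and -0.0011 in that order. Without the cohort term Gria2 was at -0.0027.

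For SB, Gria1 was at -0.0029 with total count scaling, -0.029 with the length slope, -0.018 with both slopes and -0.0079 without the 4 libraries. The length slope gave -0.0025 (Gria2) and -0.0092 (Gria3), and both slopes 0.0083 (Gria4). For injured SB against sham vehicle, the length slope gave -0.033 (Gria2) and -0.013 (Gria4), and leaving out the 4 libraries -0.030 (Gria2), -0.0065 (Gria3) and -0.0093 (Gria4). The cause of these changes was not tested.

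Calls between female cohorts fell to 3 of 8 with total count scaling (52.5% of all genes) and rose to 7 of 8 with voom (72%). Between male cohorts they were 6 with voom (31.6%), 2 with the length slope (9.52%), 3 with both slopes (21.9%) and 1 without the 4 libraries (13.1%).

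With a library left out, injury ran from -0.032 to 0.041 for Gria2, -0.060 to 0.015 for Grin1 and -0.040 to 0.060 for Grin2a, and SB from -0.011 to 0.022 for Gria1 and -0.025 to 0.010 for Gria4. Injured SB against sham vehicle ran from -0.0076 to 0.068 for Gria2. The SB ratios ran from -0.0081 to 0.034 (Grin2a to Grin2b) and -0.042 to 9.28e-04 (Gria1 to Gria2). Member calls stayed at 5 between female and 0 between male cohorts.

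The replicate numbers of the labels did not pair the samples: the median correlation of same-numbered deviations was -0.331 to 0.0445, and a library correlated best with its own number in 0 of 9, 0 of 11, 1 of 5 and 2 of 8 pairs. With the replicate block, Gria2 was at -0.016 and Grin1 at 0.0088 for injury, and member calls were 3 of 8 between female cohorts (27% of all genes).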
